A study of Mus musculus with 8 samples.

Results

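The core cardiac transcription factors are 10 genes, Gata4, Gata6, Nkx2-5, Tbx5, Tbx20, Mef2a, Mef2c, Mef2d, Hand2 and Srf, listed by name. Each was found as 1 row among the 27179 Entrez genes of the count table, and all 10 passed the filter on low counts that kept 14966 genes for testing. RNA-seq was performed on neonatal cardiomyocytes (NCMs) of male C57Bl/6J mice whose dams breathed filtered air (FA) or diesel exhaust (DE) from embryonic day 0.5 until late gestation. Hearts were collected on postnatal day 0, and 1 library was made from the NCMs of 1 heart, with 4 FA libraries (replicates 2, 3, 4 and 6) and 4 DE libraries (replicates 1, 3, 5 and 7). The exhaust was the exposure that set the DE group apart, and both groups carried the same strain background and no transgene. Per the study's methods, ventricular cells of both groups were released with an enzyme blend, held in medium with serum and Ara-C, a drug against dividing cells, while fibroblasts settled on the plate, and the cells left in suspension were frozen. The study's methods give fewer hearts in each group than the libraries at hand, without naming which, so all 8 were used. Which pups shared a litter was not given in the sources used here. The question was whether the regulators that define the cardiomyocyte differed between FA and DE offspring at birth.

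Cardiomyocyte identity is held by a small set of DNA-binding proteins that bind one another and share enhancers. GATA4 and GATA6 are zinc finger proteins that recognise the letters GATA, NKX2-5 is a homeodomain protein, TBX5 and TBX20 bind the T-box element, HAND2 is a basic helix-loop-helix protein of the right ventricle and outflow tract, and the MADS-box proteins MEF2A, MEF2C, MEF2D and SRF bind boxes rich in A and T in muscle genes. Loss or reduced dosage of several of them is a known cause of congenital heart disease, and GATA4, MEF2 and SRF also take part in the hypertrophic gene program of the stressed heart.

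Library totals lay between 17943024 and 39839737 fragments, and the members were counted well above the range where counting error matters, from 396 fragments for Tbx5 in DE replicate 7 to 19002 for Tbx20 in FA replicate 2. A prefix in the library names is 11 for all FA libraries and for DE replicates 1 and 7, and 12 for DE replicates 3 and 5, and no label says what it stands for. Cardiomyocyte markers dominated every library, and defining markers of skeletal muscle were nearly absent, with Myod1 at 0 and Myf5 at 1 fragment over all libraries. The 9 cardiomyocyte markers summed to 52505 to 56483 CPM (fragments scaled to library size) across the FA libraries but to 38567 to 43872 CPM across the DE libraries, and without Myh6, the most abundant of them, the ranges were still apart (31137 to 31790 CPM against 24813 to 28452 CPM). Without Myh6 and Ttn, the gene of the sarcomere protein titin, they overlapped (24344 to 28004 CPM against 21123 to 25275 CPM), and the median log2 fold change of the 9 markers was -0.16, with 9 of 9 lower in mean in DE. The 8 fibroblast markers summed to 2007 to 3459 CPM in FA libraries and 3653 to 6173 CPM in DE libraries. Both sums moved with the exposure, 9 of the 10 core factors had the lower mean where the cardiomyocyte sum was lower, and the part of these cells in the results below was not tested. In RNA of whole cell preparations, fewer cells of a type and less RNA in each cell cannot be told apart.

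No core factor of the 10 passed the thresholds between DE and FA in edgeR's quasi-likelihood test, where a call needs a Benjamini-Hochberg adjusted p of 0.05 or less over all tested genes and a difference of at least 25%. The background was 868 of 14966 tested genes (5.80%) called, with 2.22% lower and 3.58% higher in DE, so 0 of 10 is near what this share gives. At an unadjusted p under 0.05, 4 of 10 members passed, namely Mef2d, Tbx5, Gata4 and Mef2a, each with the lower mean in DE, against 25.6% of tested genes in either direction and 12.2% with the lower value in DE. DESeq2 called 2 of the 10 (Tbx5 and Mef2d) against 10.9% of all genes, and edgeR's likelihood ratio test called the same 2 against 10.7%. The mean was lower in DE for 9 members and higher for Srf, and the median log2 fold change of the 10 was -0.22, against 0.004 over all tested genes, of which 49.5% had the lower value in DE. The 95% interval of each of the 10 members reached past a 25% difference (0.322 on the log2 scale) in at least 1 direction, so a difference of the size the test asks for cannot be set aside for any of them.

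**Figure D1:**
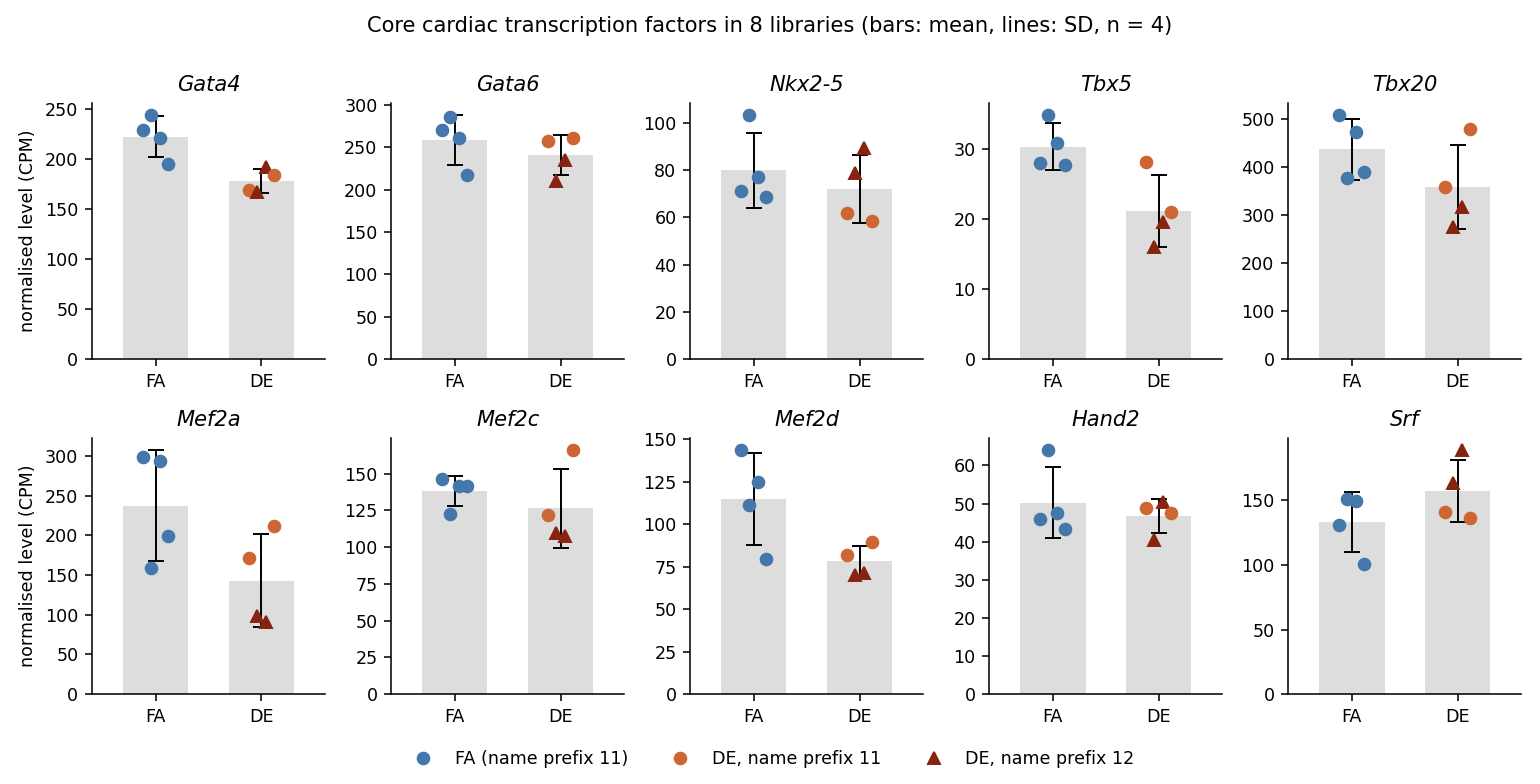
Normalised level in CPM (vertical axes, from 0) of the 10 core factors in the 4 FA and 4 DE libraries, with grey bars for the mean, black lines for the SD and points for single libraries. Triangles are the 2 DE libraries with name prefix 12, which held the lowest Mef2a, Mef2c, Mef2d, Tbx5 and Tbx20 values and the highest Srf values. Gata4 is the panel in which no DE point reaches the FA points.

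Levels between genes were compared as CPM per kilobase of transcript, taken from the longest annotated transcript with a RefSeq record, since longer transcripts give more fragments. In FA the mean level per kilobase was 80.0 ± 9.05 for Gata6 and 65.5 ± 6.01 for Gata4 (SD, n = 4). Nkx2-5 (52.5 ± 10.5), Srf (50.9 ± 8.91), Mef2c (48.3 ± 3.66), Tbx20 (48.0 ± 7.01) and Mef2a (42.9 ± 12.6) followed, and from Gata6 to Mef2a each gene overlapped the next in its range over the 4 libraries. Hand2 (21.4 ± 3.96) and Mef2d (21.3 ± 4.99) overlapped each other but not Mef2a, and Tbx5 was last at 7.71 ± 0.839 CPM per kilobase, below every value of the other 9. By the mean over all 8 libraries per kilobase, among all tested genes with a known length, the members stood between the 94.8th percentile for Gata6 and the 49.6th for Tbx5. In DE the order was Gata6 (74.5), Srf (60.2), Gata4 (52.4), Nkx2-5 (47.3), Mef2c (44.2), Tbx20 (39.3), Mef2a (25.8), Hand2 (19.9), Mef2d (14.5) and Tbx5 (5.38 CPM per kilobase). Srf stood above Gata4 in mean level in DE and below it in FA, with overlapping ranges in DE (52.1 to 72.2 for Srf, 49.2 to 56.6 for Gata4).

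Of the GATA factors, Gata4 (chromosome 14, 63198914 to 63271712 on GRCm38.p6) was the member that separated the exposure groups most cleanly. It measured 229, 244, 221 and 195 CPM in FA replicates 2, 3, 4 and 6 and 169, 167, 192 and 184 CPM in DE replicates 1, 3, 5 and 7. The highest DE value, in replicate 5, lay just under the lowest FA value, in replicate 6, so the groups did not overlap, which held for 1 of the 10 members and for 14.7% of all tested genes (7.26% with the lower values in DE). The log2 fold change was -0.32 (SE 0.10, 95% interval -0.54 to -0.10) with an adjusted p of 0.0798 by edgeR's quasi-likelihood test. DESeq2 gave an adjusted p of 0.0267, within a range over all 22 alternatives of 0.0171 to 0.922, with a log2 fold change of -0.319 that stayed short of the 0.322 that a call requires. Leaving out each library in turn moved the log2 fold change of Gata4 between -0.38 and -0.27.

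Gata6, on chromosome 18, overlaps GATA4 in function and was the more abundant of the pair. It measured 270.3, 286, 262 and 218 CPM in FA and 258, 210.1, 236 and 261 CPM in DE, in the same order of replicates, and the groups overlapped along most of their range. Its log2 fold change was -0.10 (SE 0.11, 95% interval -0.35 to 0.14, adjusted p = 0.593 by the same test). Within a library, the ratio of Gata4 to Gata6 in CPM was 0.847, 0.855, 0.847 and 0.898 in FA and 0.657, 0.796, 0.816 and 0.705 in DE. Every DE library therefore had less Gata4 for its Gata6 than any FA library, with the lowest ratios in DE replicates 1 and 7, the libraries with prefix 11. The ratio was looked at after both genes had been seen and is given as a description.

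Nkx2-5 (chromosome 17, 26838664 to 26844988) encodes the homeodomain partner of GATA4 on atrial and conduction genes. It measured 71.1, 103, 77.0 and 68.5 CPM in FA and 61.7, 78.8, 89.5 and 58.6 CPM in DE. FA replicate 3 was the highest of the 8, and the DE libraries with prefix 12 lay within the FA range while those with prefix 11 lay below it. The log2 fold change over all libraries was -0.15 (SE 0.17, 95% interval -0.51 to 0.22, adjusted p = 0.604, edgeR's quasi-likelihood test). Against the prefix 11 DE libraries alone, with the prefix as a term, it was -0.41 (SE 0.16, adjusted p = 0.204), and without FA replicate 3 it was -0.0008.

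Of the T-box factors, Tbx5 (chromosome 5, 119796514 to 119885220), a regulator of atrial, left ventricular and conduction genes, measured 28.1, 34.9, 30.9 and 27.8 CPM in FA and 28.2, 16.0, 19.5 and 21.1 CPM in DE. DE replicate 1 lay inside the FA range and the other 3 DE libraries lay below every FA library. The log2 fold change was -0.52 (SE 0.16, 95% interval -0.87 to -0.17, adjusted p = 0.0783 by edgeR's quasi-likelihood test). Tbx5 was called lower in 4 of 22 alternatives (adjusted p from 0.0171 to 0.464 over all 22). These were DESeq2 (adjusted p = 0.0309), the likelihood ratio test (0.0324) and the offsets for length and GC content (0.0453), each with all 8 libraries, and the fit without DE replicate 1, where the log2 fold change was -0.69 (adjusted p = 0.0171) and 7.93% of all genes were called. Tbx20 (chromosome 9, 24720812 to 24774303), which maintains the working myocardium, measured 508, 377, 472 and 389 CPM in FA and 359, 275, 317 and 479 CPM in DE. DE replicate 7 had the second highest value of the 8 and the other 3 DE libraries lay below all FA libraries. Its log2 fold change was -0.29 (SE 0.17, 95% interval -0.65 to 0.08, adjusted p = 0.297), and no alternative called it.

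The 3 MEF2 genes lie on different chromosomes, with Mef2a on chromosome 7 (67231163 to 67376456), Mef2c on chromosome 13 (83504017 to 83667079) and Mef2d on chromosome 3 (88141941 to 88172091). Mef2d, whose protein carries stress signals to fetal cardiac genes, measured 143, 111, 125 and 79.5 CPM in FA and 81.7, 70.3, 71.3 and 89.3 CPM in DE. FA replicate 6 lay among the DE libraries, and the other 3 FA libraries lay above all of them. Its log2 fold change of -0.56 (SE 0.16, 95% interval -0.91 to -0.20) had the smallest p of the 10 members and an adjusted p of 0.0677 by edgeR's quasi-likelihood test. Without FA replicate 6 the log2 fold change was -0.70 with an adjusted p of 0.0144 (range over 22 alternatives 0.0144 to 0.403), in a fit that called 5.34% of all genes.

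Mef2a had the widest gap between the group means. It also had the widest spread relative to the mean within the groups (coefficient of variation 29.3% in FA and 41.0% in DE). It measured 298, 159, 293 and 199 CPM in FA and 171, 97.8, 90.2 and 211 CPM in DE. The values fell into high and low libraries inside each group, with FA replicates 2 and 4 the highest and the DE libraries of prefix 12 the lowest, and the groups overlapped in the middle. The mean was 237 ± 69.5 CPM for FA against 143 ± 58.5 CPM for DE (SD, n = 4), and the log2 fold change was -0.74 (SE 0.28, 95% interval -1.36 to -0.12, adjusted p = 0.135). The biological coefficient of variation of Mef2a was 27.9% against a median of 14.9% over all tested genes, and none of the 22 alternatives called it. Mef2c, required for the formation of the right ventricle and outflow tract, measured 146, 123, 142 and 142 CPM in FA and 122, 109.8, 108 and 166 CPM in DE. The lowest and the highest Mef2c values were both in DE, and its log2 fold change was -0.13 (SE 0.14, 95% interval -0.43 to 0.18, adjusted p = 0.587).

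Per kilobase, Mef2a made up 41.0%, 31.1%, 42.2% and 35.9% of the summed level of the 3 MEF2 genes in the FA libraries and 34.8%, 25.6%, 24.2% and 33.9% in the DE libraries. The share of Mef2c ran from 38.8% to 49.4% in FA and from 48.1% to 56.1% in DE, and that of Mef2d from 14.7% to 22.4% and from 14.7% to 19.7%. All 3 ranges overlapped between the groups. Mef2c was the largest share in 6 of 8 libraries, and Mef2a was larger in FA replicates 2 and 4. Mef2b, the fourth gene of the family, was counted 55 times over all libraries and was not tested.

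**Figure D2:**
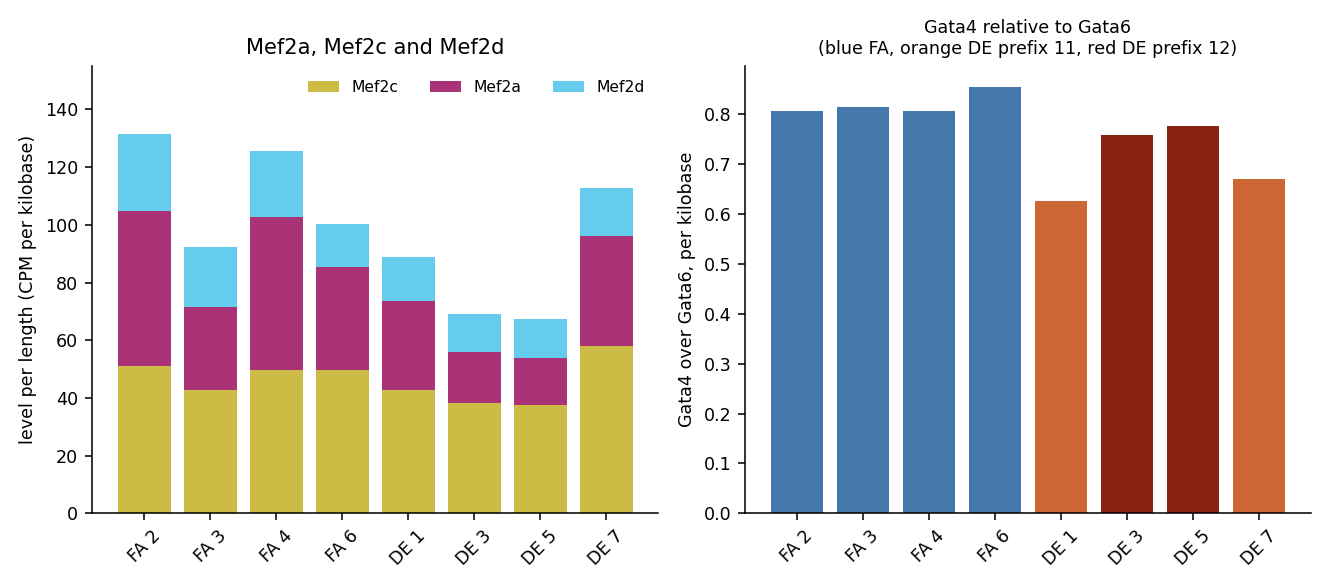
Left, level of Mef2c, Mef2a and Mef2d in each library as stacked bars in CPM per kilobase of transcript, where the summed height runs from 67.2 in DE replicate 5 to 131 in FA replicate 2. Right, ratio of Gata4 to Gata6 per kilobase in each library, where the 4 FA bars reach 0.805 or more and the 4 DE bars 0.777 or less.

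Hand2 (chromosome 8, 57320983 to 57324517) measured 46.1, 64.0, 47.5 and 43.4 CPM in FA and 48.8, 40.4, 50.3 and 47.6 CPM in DE. FA replicate 3 stood above the other 7, which lay within a narrow band, and without it the log2 fold change turned from -0.10 (SE 0.13, 95% interval -0.39 to 0.19, adjusted p = 0.651) to 0.03. Promoter sequences from RefSeq (GRCm38.p6) were at hand for 7 of the 10 members, not Gata4, Gata6 or Tbx5. The 250 bases before each start were searched on both strands for GATA, T-box, NKX, CArG and MEF2 matches. GATA matches were AGATAA, or the same with T as its first letter, or with G as its last, or with both changes. T-box matches were AGGTGT and NKX matches TNAAGTG, and the CArG and MEF2 boxes are both rich in A and T. Hand2, a known target of GATA factors, is shown because it was the one member with GATA matches, 215 and 172 bases before its start, in chr8:57320733-57320852 on the plus strand. The capitals mark both matches, and 26.5% of all 32851 promoter windows held at least 1.
Hand2: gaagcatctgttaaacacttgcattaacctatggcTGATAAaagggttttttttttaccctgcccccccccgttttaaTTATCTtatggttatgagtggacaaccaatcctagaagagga

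Srf (chromosome 17, 46546838 to 46558267), the serum response factor of sarcomere and growth genes, was the member with the higher mean in DE. It measured 131, 151, 149 and 101 CPM in FA and 141, 164, 189 and 136 CPM in DE. The DE libraries of prefix 12 were the highest of the 8, FA replicate 6 the lowest, and the prefix 11 DE libraries lay inside the FA range. Its log2 fold change was 0.24 (SE 0.15, 95% interval -0.08 to 0.57, adjusted p = 0.321 by edgeR's quasi-likelihood test), and with the prefix as a term it was 0.06. SRF is known to act on its own gene, and the Srf promoter is shown because it held 2 CArG boxes, 82 and 62 bases before the start, where 1.47% of all windows held any. The sequence below is chr17:46556163-46556282 on the minus strand, with both boxes in capitals.
Srf: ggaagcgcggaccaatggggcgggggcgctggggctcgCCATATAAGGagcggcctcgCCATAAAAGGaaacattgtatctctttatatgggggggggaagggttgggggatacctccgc

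The remaining matches among the members were few. Mef2c had 1 T-box match, 216 bases before 1 of its 3 annotated starts, where 11.8% of all windows held the letters. The windows of Nkx2-5, Tbx20, Mef2a and Mef2d held none of the 5 motifs, and no member's window held an NKX or MEF2 match. Such a match describes letters in a window and does not show binding.

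For Mef2a, Tbx20, Mef2c, Nkx2-5, Srf and Gata6, the 2 kinds of DE library differed from each other by more than DE differed from FA. Fitted as 3 groups (FA and each kind of DE library), the prefix 12 DE libraries against the prefix 11 DE libraries had a log2 fold change of -1.02 for Mef2a (SE 0.26), -0.50 for Tbx20 (SE 0.18), -0.48 for Tbx5 (SE 0.17) and -0.40 for Mef2c (SE 0.15). The difference had the other sign for Nkx2-5, at 0.48 (SE 0.18), and for Srf, at 0.35 (SE 0.18), while Gata4 was nearly level at 0.03 (SE 0.14). Of the 10 members, 5 passed an unadjusted p of 0.05 in this comparison, against 23.3% of tested genes, and none reached the thresholds of edgeR's quasi-likelihood test, against 2.06%. The smallest adjusted p was 0.0626, for Mef2a.

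For the members of lowest and highest GC content, these differences went with the base composition of the transcripts. Mef2a, Tbx20 and Mef2c had the lowest GC content of the members, at 42.0%, 42.3% and 44.4%, and Srf and Nkx2-5 the highest, at 64.4% and 67.1%. Over the 13851 tested genes with a known length and GC content, the median log2 fold change of prefix 12 over prefix 11 DE libraries was taken in 5 groups of equal size ordered by GC content, and it went from -0.23 in the lowest group to 0.22 in the highest. That of DE over FA went from -0.10 to 0.12. Against the medians of prefix 12 over prefix 11, Mef2a, in the lowest group, lay well under that of its group. Tbx5 (51.3% GC, -0.48 against -0.01), Mef2d (55.0%, -0.27 against 0.10) and Gata6 (56.5%, -0.22 against 0.22) also lay under theirs. In the highest group, Gata4 (0.03) and Hand2 (-0.09) lay under 0.22 as well, while Nkx2-5 (0.48) and Srf (0.35) lay above it. Within a library, the correlation over the 10 members between GC content and distance from the gene's own mean log2 level was 0.81 in DE replicate 3, 0.84 in DE replicate 5 and 0.69 in FA replicate 3, and between -0.81 and -0.22 in the other 5 libraries. The 10 points of a library share its depth and scaling, so these correlations are descriptions only. The prefix and the exposure are partly confounded, since no FA library has prefix 12, and the part of GC content in the differences between DE and FA was not tested.

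**Figure D3:**
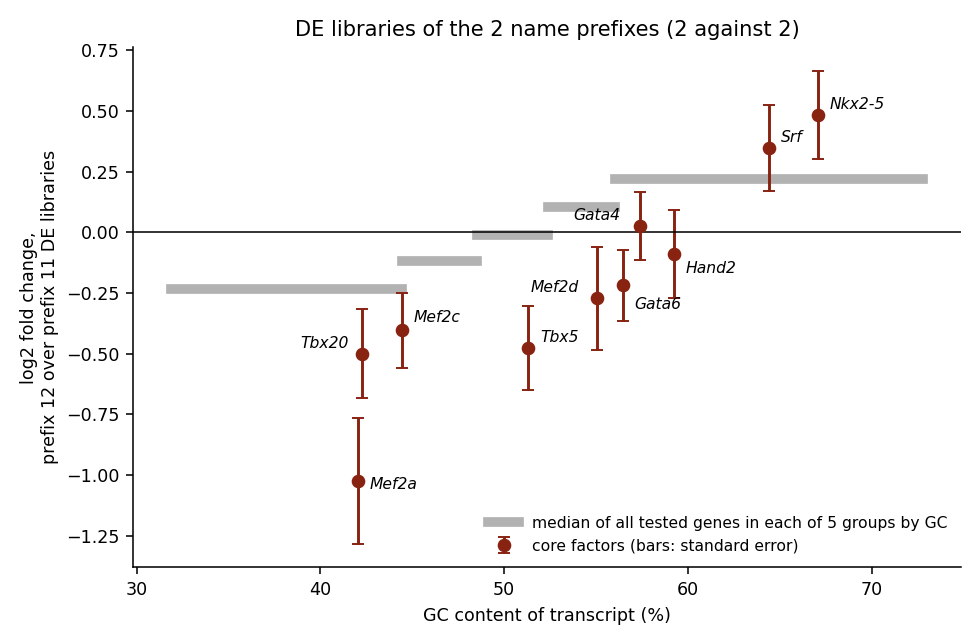
Log2 fold change between the 2 DE libraries with name prefix 12 and the 2 with prefix 11 (vertical axis) against GC content of the transcript in percent (horizontal axis) for the 10 core factors, with standard errors. Grey bars give the median of all tested genes in each of the 5 groups by GC content, from -0.23 to 0.22, and the members run from -1.02 for Mef2a at 42.0% GC to 0.48 for Nkx2-5 at 67.1% GC.

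Within prefix 11, the 4 FA libraries against DE replicates 1 and 7 gave lower mean levels in DE for Mef2d (log2 fold change -0.43, SE 0.19), Nkx2-5 (-0.41, SE 0.16), Gata4 (-0.33, SE 0.12), Mef2a (-0.31, SE 0.22) and Tbx5 (-0.30, SE 0.15). Gata6 (0.002), Mef2c (0.06), Srf (0.06), Hand2 (-0.06) and Tbx20 (-0.06) were near 0. None of the 10 was called in this fit, against 2.99% of all genes, nor when the libraries of prefix 11 were fitted alone, against 1.75%, and the smallest adjusted p was 0.175, for Gata4 (edgeR's quasi-likelihood test). Gata4 thus had about the same difference in either kind of DE library, the differences of Mef2a and Tbx20 were carried largely by the prefix 12 libraries, and that of Nkx2-5 by the prefix 11 libraries.

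With offsets that take out how the level of genes in a library varies with GC content and length, 4 of the 10 members were called, against 11.2% of all genes, each lower in DE. These were Nkx2-5 (log2 fold change -0.41, adjusted p = 0.0120), Gata4 (-0.40, adjusted p = 0.0171), Mef2d (-0.51, adjusted p = 0.0261) and Tbx5 (-0.50, adjusted p = 0.0453). Over the 22 alternatives the adjusted p of Nkx2-5 ran from 0.0120 to 0.9999, the upper end being a test with the 25% difference built in, and the ranges for the other 3 stand with each gene above. Mef2a just missed the threshold (-0.60, adjusted p = 0.0535, range 0.0535 to 0.560), and Tbx20, at -0.05, was near 0 in this fit. Without the offsets none of the 10 was called in the same 13851 genes, against 6.12%. Gata6, Tbx20, Mef2c, Hand2, Mef2a and Srf were called under none of the 22 alternatives.

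**Figure D4:**
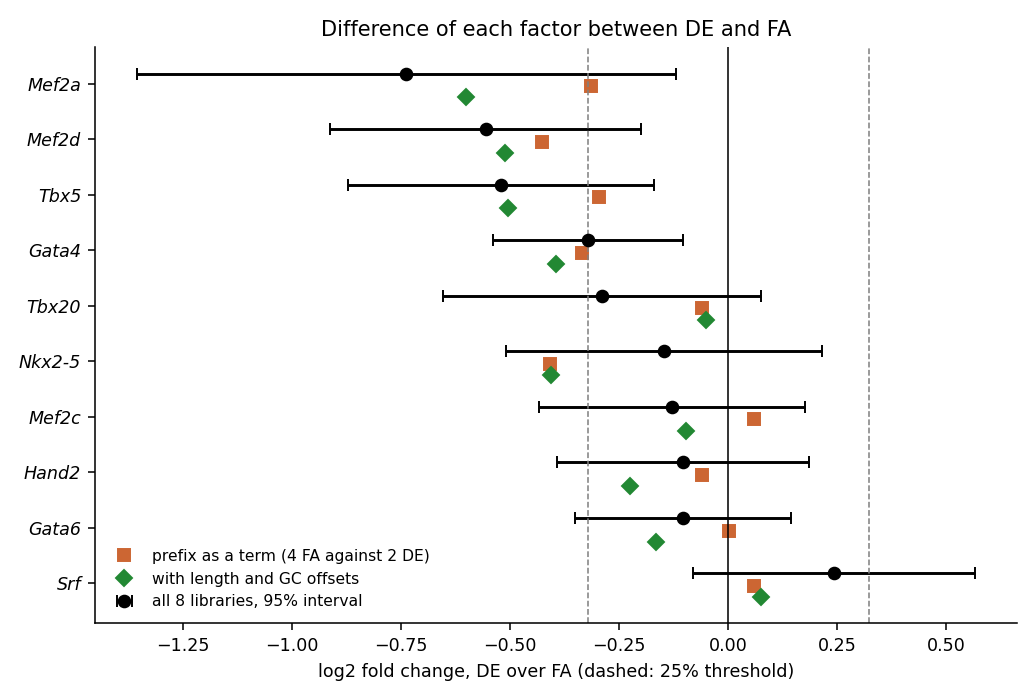
Log2 fold change of DE over FA (horizontal axis) for each core factor, from all 8 libraries with 95% intervals (black), with the name prefix as a term (orange squares) and with length and GC offsets (green diamonds). The dashed lines mark the 25% threshold. Every black interval crosses at least 1 dashed line, and those of Mef2a, Mef2d, Tbx5 and Gata4 do not reach 0.

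The proteins that switch these factors on and off were read from a list of 18 cofactors and repressors, of which 1 was called lower and 1 higher in DE, against 2.22% and 3.58% of all tested genes, and the median of their log2 fold changes was -0.14. Hdac9, a class IIa histone deacetylase that represses MEF2 targets, fell from 60.8, 49.9, 44.6 and 44.9 CPM in FA to 36.1, 30.6, 29.1 and 33.4 CPM in DE, with no overlap (log2 fold change -0.64, SE 0.12, adjusted p = 0.0160). Hdac7, a class IIa deacetylase prominent in endothelial cells, rose from 65.1, 69.0, 68.6 and 63.1 CPM to 82.9, 103, 85.1 and 86.6 CPM (log2 fold change 0.43, SE 0.10, adjusted p = 0.0304). Within prefix 11 the differences were -0.53 for Hdac9 and 0.35 for Hdac7 and neither passed (edgeR's quasi-likelihood test, adjusted p of 0.0682 and 0.114). The 8 endothelial markers, of which 7 had the higher mean in DE and none was called, summed to 1175 to 1512 CPM in FA libraries and 1291 to 1876 CPM in DE libraries, and their part in the rise of Hdac7 was not tested. Hdac9 was also not called without DE replicate 3, and Hdac7 without that library or any 1 of the FA libraries. Over all genes, 268 were called without DE replicate 3 and from 237 to 826 without 1 FA library, against 868 with all libraries.

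Myocd, the SRF coactivator of muscle genes, measured 162, 103, 149 and 112 CPM in FA and 110.5, 61.3, 65.8 and 129 CPM in DE, high and low in the same libraries as Mef2a, and its log2 fold change was -0.52 (SE 0.24, adjusted p = 0.198). Its difference between the kinds of DE library was -0.91 (adjusted p = 0.0445, edgeR's quasi-likelihood test). That passed the thresholds, as 2.06% of all tested genes did. The 3 most abundant genes of the list that were not called, the LIM protein gene Fhl2 (log2 fold change -0.01), the SRF antagonist Hopx (0.002) and the TEAD coactivator Wwtr1 (-0.02), were level between the groups.

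Of 22 other cardiac transcription factors, 18 passed the filter and none was called, and the median of their log2 fold changes was -0.16. At an unadjusted p under 0.05 there were 2 lower and 2 higher, against 25.6% of all tested genes in either direction, and DESeq2 called 2 of the 18, against 10.9%, so both counts are near the background. Tead1, a Hippo effector in muscle (-0.17), the Notch target Hey2 (0.18) and the forkhead gene Foxp1 (0.13) were the most abundant. Of the relatives of core members, Hand1 and Gata5 were scarce, with Hand1 between 1.21 and 3.34 CPM (log2 fold change -0.36, SE 0.32) and Gata5 between 0.872 and 1.77 CPM (-0.29, SE 0.24). The progenitor factor Isl1 was counted 63 times over all libraries and Nkx2-6 not at all.

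Several genes that these factors are known to drive fell in DE. Of 24 cardiac target genes, 6 were called lower and none higher, against 2.22% and 3.58% of all tested genes, and the median of their log2 fold changes was -0.24. Myh6, the alpha myosin heavy chain under TBX5, GATA4 and MEF2, fell from 24693, 21230.3, 23104 and 24116 CPM in FA to 14728, 13754, 15420.0 and 14552 CPM in DE, with no overlap (log2 fold change -0.67, SE 0.09, adjusted p = 0.00315). It was called in each of the 22 alternatives, within prefix 11 included (-0.67, adjusted p = 0.0192).

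Gja1, the gap junction gene connexin 43, fell from between 812 and 969 CPM to between 437 and 675 CPM (-0.66, SE 0.13, adjusted p = 0.0198). The calcium pump gene Atp2a2 fell from between 5599 and 8281 CPM to between 4571 and 5199 CPM (-0.51, SE 0.12, adjusted p = 0.0363), and its inhibitor Pln from between 3304 and 3648 CPM to between 2426 and 2843 CPM (-0.38, SE 0.09, adjusted p = 0.0360). Xirp2, a MEF2 target of the intercalated disc, fell from 52.0, 33.2, 57.8 and 52.8 CPM to 33.8, 27.3, 25.2 and 19.8 CPM (-0.88, SE 0.19, adjusted p = 0.0247). FA replicate 3 lay just under DE replicate 1 for Xirp2, and the groups of Myh6, Gja1, Atp2a2 and Pln did not overlap. With the prefix as a term, Gja1, Atp2a2, Pln and Xirp2 were not called (adjusted p from 0.0744 to 0.170). None of these 4 was called without FA replicate 2 or without FA replicate 4. Pln was called in 10 of 22 alternatives (adjusted p from 0.000314 to 0.676), and its difference stayed short of 25% with library totals alone (-0.31) and with the offsets for length and GC content (-0.32), while with no filter on low counts its adjusted p was 0.0536. Xirp2 was called in 14 of 22 (adjusted p from 0.000502 to 0.122) and was not called with the offsets (-0.54, adjusted p = 0.0779). Gja1 was called in 17 and Atp2a2 in 13. The number of targets called was 3 without FA replicate 2, DE replicate 3 or DE replicate 5 and 2 without FA replicate 4. Calls over all genes fell too, from 868 of 14966 to 249 of 14771 without FA replicate 2 and 237 of 15453 without FA replicate 4. They were 268 of 14739 without DE replicate 3 and 526 of 14762 without DE replicate 5. Myh6 and Pln are themselves among the cardiomyocyte markers summed above.

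Not all targets shared the direction. The natriuretic peptide gene Nppa, driven by GATA4, NKX2-5 and TBX5 together, measured 357, 841, 664 and 952 CPM in FA and 441, 453, 417 and 279 CPM in DE (log2 fold change -0.82, SE 0.26, adjusted p = 0.0821). FA replicate 2 lay among the DE libraries, and without it Nppa was called (-1.04, adjusted p = 0.0191), 1 of 4 calls over 22 alternatives (adjusted p from 0.0121 to 0.337). Nppb, a GATA4 target, measured 156, 232, 255 and 251 CPM in FA and 332, 439, 493 and 178 CPM in DE (0.69, SE 0.27, adjusted p = 0.139), with DE replicate 7 among the FA libraries, and the 1 alternative of 22 that called it left that library out (0.91, adjusted p = 0.0307, range over the 22 from 0.0307 to 0.771). With the prefix as a term, Nppb stood at 0.19 (adjusted p = 0.734), and the DE libraries with prefix 12 exceeded those with prefix 11 by 0.87 on the log2 scale (adjusted p = 0.0999). The sarcomere genes Actc1 (-0.20, adjusted p = 0.353), Tnnt2 (-0.06, adjusted p = 0.786) and Myl2 (-0.05, adjusted p = 0.855), the most abundant targets not called, differed by less than their spread.

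Promoter windows were at hand for 21 of the 24 targets, and 10 held a GATA match, 2 a T-box match, 2 an NKX match, 2 a CArG box and 1 a MEF2 box. The windows shown are those of Nppa, which held matches for the 3 kinds of factor known to drive it, of the called targets Pln and Xirp2, and of Actc1 as an SRF target that was not called. Capitals mark the GATA, T-box and NKX letters in Nppa (chr4:148000472-148000721, plus strand), the GATA letters in Pln (chr10:53337496-53337615, plus strand), the MEF2 box in Xirp2 (chr2:67445882-67446001, plus strand) and the CArG box in Actc1 (chr2:114052886-114052955, minus strand), all on GRCm38.p6. An NKX match was found in 10.1% and a MEF2 box in 2.92% of all windows.
Nppa: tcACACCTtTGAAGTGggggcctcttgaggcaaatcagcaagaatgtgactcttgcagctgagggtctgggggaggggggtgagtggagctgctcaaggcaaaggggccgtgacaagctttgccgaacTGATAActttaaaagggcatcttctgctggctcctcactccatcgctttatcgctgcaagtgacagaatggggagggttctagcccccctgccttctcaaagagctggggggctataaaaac
Pln: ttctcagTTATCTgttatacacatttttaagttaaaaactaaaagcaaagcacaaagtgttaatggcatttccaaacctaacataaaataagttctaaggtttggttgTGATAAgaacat
Xirp2: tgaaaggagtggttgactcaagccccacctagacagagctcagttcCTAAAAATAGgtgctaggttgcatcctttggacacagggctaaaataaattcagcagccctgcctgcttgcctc
Actc1: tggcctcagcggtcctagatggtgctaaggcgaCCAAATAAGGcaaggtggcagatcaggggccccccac

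SRF acts on cytoskeletal genes with myocardin-related cofactors and on immediate early genes with ternary complex factors. Of 14 cytoskeletal targets, none was called lower and 2 were called higher in DE, against 2.22% and 3.58% of all tested genes, and their median was 0.29 on the log2 scale. Tpm4, a tropomyosin of non-muscle cells, rose from 173, 149.9, 182 and 240.1 CPM to 269, 381, 278 and 289 CPM (0.71, SE 0.16, adjusted p = 0.0282), and Zyx, a focal adhesion gene, from 118, 131, 122 and 116 CPM to 174, 221, 198 and 141 CPM (0.59, SE 0.13, adjusted p = 0.0274). Neither was called within prefix 11 (0.58 and 0.37, adjusted p of 0.103 and 0.117, edgeR's quasi-likelihood test). None of the 14 was called without FA replicate 2, FA replicate 4 or DE replicate 3. Over all genes, those fits called 249, 237 and 268, against 868 with all libraries. Acta2, an actin of smooth muscle and of the fetal heart, had the other sign, with 927, 1108, 1015 and 1549.7 CPM in FA and 920.3, 655, 774 and 633 CPM in DE (-0.63, SE 0.17, adjusted p = 0.0562), and it was called lower by DESeq2 (adjusted p = 0.00964, range over 22 alternatives 0.00964 to 0.320).

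The other abundant members of that list, Tpm1 (-0.08, adjusted p = 0.703) and Myl9 (-0.26, adjusted p = 0.299), were not called. Of 7 immediate early targets none was called, against 5.80% of all tested genes, and the median was 0.13. Fos (-0.001), Fosb (-0.04) and Egr1 (0.13) differed by less than their spread. The cytoskeletal genes that rose are also expressed by fibroblasts, which the plating step was meant to remove and whose markers moved with the exposure as given above, and the part of those cells was not tested. All cells met serum during isolation, and no library without that step was analysed here.

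**Figure D5:**
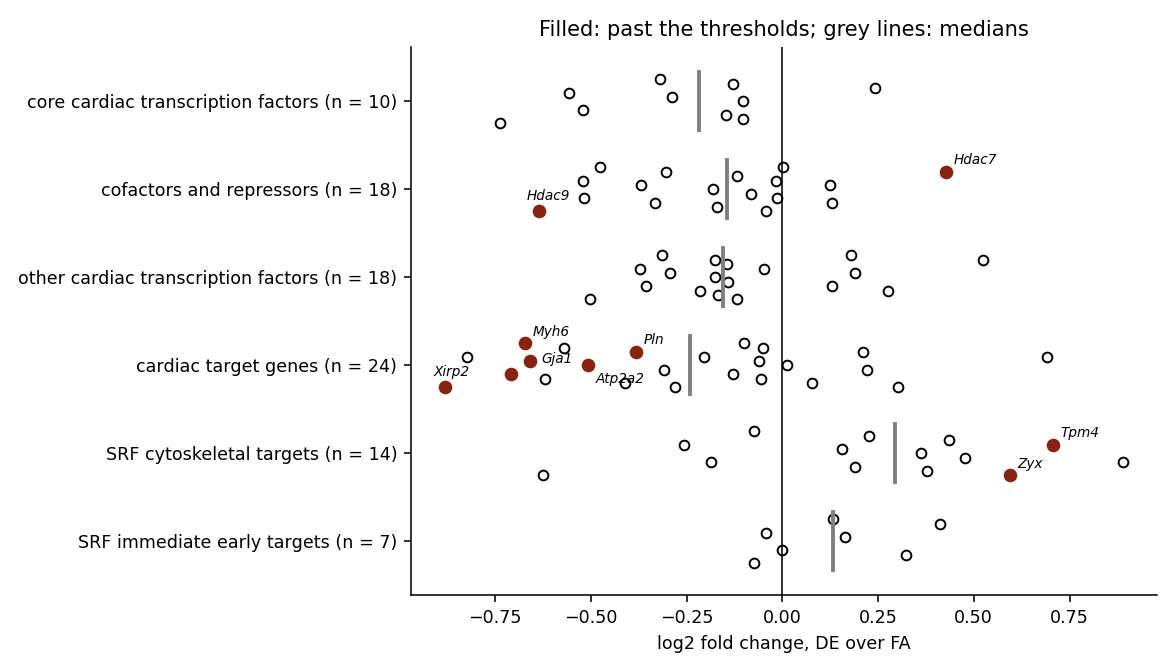
Log2 fold change of DE over FA (horizontal axis) of every tested gene of the core factors and of the 5 related lists, 1 point per gene, with filled points for genes past both thresholds and grey lines for the median of each list. The core factors hold no filled point and a median of -0.22, the cardiac targets hold 6 filled points, all to the left of 0, and the SRF cytoskeletal targets hold 2, both to the right.

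For Mef2d, the member with the smallest p, the genes with the most similar pattern over the 8 libraries were sought among all tested genes by the root mean square difference of mean-centred log2 CPM. Among the closest were Cpeb3 (0.0855) and Dip2c (0.0911), whose own log2 fold changes between DE and FA were -0.44 and -0.55. Neither reached the thresholds (edgeR's quasi-likelihood test, adjusted p of 0.161 and 0.0773).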

How the data were processed

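RNA-seq of NCMs from 4 FA and 4 DE hearts was analysed from the fragment counts that the authors deposited. Libraries were poly-A selected and stranded. The authors aligned reads to mm10 with Tophat, left marked duplicates in place, and ran featureCounts for each Entrez gene. These raw counts carry no normalization, and the strand setting and the handling of fragments shared by genes were not given in the sources used here. Genes lacking a symbol (1904 of 27179, with 0.384% to 0.581% of a library) were kept in the totals. Within a group, no library repeated another within counting noise. By the chi-square per gene between the counts of 2 libraries, FA replicates 2 and 4 were the most alike, at 5.42. The other pairs within a group ran from 17.3 to 70.2.

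After filterByExpr with a minimum count of 10, TMM factors scaled the libraries. The quasi-likelihood test of edgeR 4.0.16 in R 4.3.3 compared DE with FA without covariates, adjusted by the Benjamini-Hochberg method over 14966 genes, and CPM used the same factors. Scripts were tested on simulated data. The members and lists were chosen with earlier results of these data known, and the lists came from general knowledge. Named genes were all core members, the called genes and the 3 most abundant uncalled genes of each related list, and Nppa, Nppb, Myh6, Actc1, Myocd, Hopx, Hand1, Gata5 and Mef2b. Of these and of the genes most like Mef2d, 2 are not reported here. Isl1 and Nkx2-6 were named after their values were seen. The 22 alternatives were DESeq2 1.42.0, the likelihood ratio test, limma-voom (limma 3.58.1), testing against a 25% difference, dropping the fold threshold, 3 other scalings, 2 other filters, offsets for length and GC content (splines, 5 degrees of freedom), the prefix as a term, prefix 11 only, each of the 8 libraries left out, and, added after seeing the data, the genes of the offset fit without offsets. Depth set no limit for the members, and duplicates kept in the counts are not separate molecules.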

Additional observations from a re-analysis of the deposited data

How the results depend on the processing

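No paired analysis was run, since no label pairs an FA library with a DE library. Without 1 library in turn, the count of core factors called ran from 0 to 1, of cofactors and repressors from 0 to 2, of other cardiac factors from 0 to 1, of cardiac targets from 2 to 8, of SRF cytoskeletal targets from 0 to 4, and of all genes from 237 to 1168. Against 868 of all genes called, DESeq2 called 1633, the likelihood ratio test 1603, the built-in 25% difference 114, the length and GC offsets 1550, the prefix as a term 448 and prefix 11 only 260. Core factors called were 2 with DESeq2, 2 with the likelihood ratio test and 4 with the offsets, and 0 with each of the other 11 alternatives that keep the libraries or split them by prefix. Cofactors called were 0 with the built-in difference, the prefix term and prefix 11 only. Other cardiac factors called were 2 with DESeq2, 2 with the likelihood ratio test, 1 with limma-voom and 3 with the offsets. Targets called were 1 with the built-in difference, 2 with the prefix term and 1 with prefix 11 only. SRF cytoskeletal targets called were 5 with DESeq2, the likelihood ratio test and the offsets, and 0 with the built-in difference, the prefix term and prefix 11 only. Fewer libraries enter the fit to prefix 11 only, and the cause of the other shifts was not tested. Scaling by library totals alone moved the median of all genes by 0.07 on the log2 scale.

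Differences near 0 changed sign, in log2 fold change and in no case called. With the prefix as a term Gata6 stood at 0.0021, Mef2c at 0.059, Hopx at -0.093, Wwtr1 at 0.13, Tead1 at 0.072 and Fos at 0.019. Prefix 11 only gave Mef2c 0.055, Hopx -0.098, Wwtr1 0.12, Tead1 0.068 and Fos 0.014. The offsets gave Hopx -0.084, Wwtr1 0.088 and Tead1 0.075, and the same genes without offsets Hopx -0.00362. Library totals alone gave Fhl2 0.058, Wwtr1 0.053, Tnnt2 0.0093, Myl2 0.0195, Fos 0.074 and Fosb 0.031. Upper quartile factors gave Fhl2 0.012, Wwtr1 0.0059 and Fos 0.026. Fos was 0.000378 with DESeq2, 0.000377 with relative log expression factors, 0.000353 where genes needed a mean of 1 CPM and 0.0078 with no filter. With single libraries left out, Hand2 ranged from -0.17 to 0.032, Fhl2 from -0.092 to 0.056, Hopx from -0.081 to 0.0898, Wwtr1 from -0.11 to 0.057, Tnnt2 from -0.15 to 0.023, Myl2 from -0.16 to 0.042, Fos from -0.098 to 0.068, Fosb from -0.19 to 0.045 and Egr1 from -0.013 to 0.297.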
